A study of Mus musculus with 4 samples.

Results

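The replication-dependent histone genes make the bulk of the core histones H2A, H2B, H3 and H4 and of the linker histone H1 that package newly copied DNA. Members were taken from the count table by symbol: H2ac, H2bc, H3c and H4c followed by a number, and H1f1 to H1f5. This gave 56 of 55291 features, namely 15 H2A, 14 H2B, 12 H3, 10 H4 and 5 H1 genes. Slbp, the gene of the stem-loop binding protein, was described beside them. All 56 symbols matched a histone gene at the same mm10 position in the GENCODE M21 annotation, 10 of them on chromosome 3 and 46 on chromosome 13.

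The counts came from RNA-seq of mouse zygotes (fertilised eggs that have yet to divide) in 4 samples, each its own group. By their labels, MO injected zygotes received an MO named for H3.3 and had an MO control, while S31A injected zygotes received H3.3 S31A and had an S31A control. MO commonly stands for morpholino, an antisense oligonucleotide, and S31A is the usual notation for serine replaced by alanine, though the labels spell out neither. The labels give no strain, no time after fertilisation and no number of zygotes per sample, and do not say what the controls received. Each sample had 2 count columns, called libraries 1 and 2 here, which no source describes as separate pools of zygotes. Depth ran from 5661621 to 13233371 counts per library. With 1 sample per group the groups could not be tested against each other, and the spread between the libraries of a sample may be technical. Fewer zygotes and less RNA per zygote cannot be told apart in such bulk counts. CPM is a count scaled to a common library total.

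Messenger RNAs of these genes are unusual in that most carry no poly(A) tail. They end just after a short conserved stem-loop, which SLBP binds and through which it directs 3′ end cutting, translation and decay. The mRNAs are made in step with DNA replication and are removed when replication stops. In mouse oocytes SLBP accumulates during maturation and supports the translation of stored histone mRNA, on which the embryo depends before its own genome is active.

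The stem-loop was searched for as a 16-base motif, after the stop codon, in the annotated GENCODE transcripts of the 56 histone genes. It was found in 37 of them. All 58797 protein-coding transcripts, histone transcripts included, were searched over their whole length. Of these, 0.148% held the motif on the sense strand and 0.0646% on the antisense strand, which is not the same measure. In the 37 genes the motif lay 22 to 59 bases after the stop codon. There were 8 versions of it, and 1 version was shared by 21 genes of the H1, H2A, H2B and H3 classes. The sequences of 6 members with counts are shown because they stand for the main versions among the members described below. Each is from GENCODE M21 transcripts (mm10), on the strand of the gene, with the 16-base stem-loop in capitals and 5 bases on each side.
H2ac6: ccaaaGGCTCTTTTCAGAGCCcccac
H2bc11: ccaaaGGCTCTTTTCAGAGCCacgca
H3c7: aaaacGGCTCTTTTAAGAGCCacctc
H4c3: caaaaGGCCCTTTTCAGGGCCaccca
H4c9: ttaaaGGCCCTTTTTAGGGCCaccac
H4c1: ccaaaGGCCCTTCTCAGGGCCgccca
H2ac6 and H2bc11 had the most common version, H3c7 had the version found in 5 genes, and H4c3 had one found in 4 genes. H4c9 shared its version with H4c14, and that of H4c1 was found in this gene alone among the 56. In these lines the first and last bases of the stem pair with each other, and the H4 genes differ from the others in the stem.

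No match was found in 19 members. For 15 of these the annotated transcript gave no complete coding sequence or held fewer than 20 bases after the stop codon, so there was almost no sequence to search. The other 4 were H2bc21 with 2192 bases after the stop codon, H2bc4 with 742, H1f1 with 48 and H3c13 with 37. H2bc4 was annotated with 2 exons. Its exon 1 lay on chromosome 13 from 23684199 to 23684621 and ended 12 bases after the last coding base, stop codon included. Its exon 2 of 733 bases lay on the same chromosome from 23692176 to 23692908, on the plus strand, 7554 bases further on. Most of the 742 bases searched for H2bc4 were therefore in exon 2. The genomic stretch directly after exon 1 was not searched.

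Histone genes of this group took a very small share of the deposited counts, while Slbp was among the genes with the most counts. How the cDNA was primed is not given in the sources used here, and priming bears on how far mRNAs without a poly(A) tail are captured, so counts of these genes and of genes with tailed mRNAs cannot be read as amounts of RNA on 1 scale. Over the 8 libraries the 56 histone genes had 4958 of 81016390 counts, or 0.00612%. Slbp alone had 148092 counts, or 0.183%. In a single library the histone genes together had 397 to 1026 counts, which was 31.3 to 91.6 CPM. Slbp stood at 1324 to 2223 CPM and ranked 40 to 68 among all features by counts, and 139 to 252 when counts were divided by gene length. In every library Slbp had more counts than the whole histone group, by 14.6 to 63.6 times.

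A count in at least 1 library was seen for 26 of the 56 members (46.4%), against 36.4% of all 55291 features. The remaining 30 had 0 counts in all 8 libraries, which allows at most 3 counts or 0.0372 CPM over the 8 libraries for each. These limits and all intervals below cover counting error only, since PCR copies could not be told from separate molecules. They hold for counts assigned to a gene, and reads of sequence shared with other genes may not have been assigned to it. The members with counts were 4 of 5 H1 genes, 5 of 15 H2A genes, 6 of 14 H2B genes, 5 of 12 H3 genes and 6 of 10 H4 genes. Only 17 members reached 1 CPM in any sample and only H2bc4 and H1f1 reached 10 CPM. H2bc4 was the single member with counts in all 8 libraries, and H2bc11, H2bc12, H3c7, H4c3 and H2ac1 had counts in 7.

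**Figure D1:**
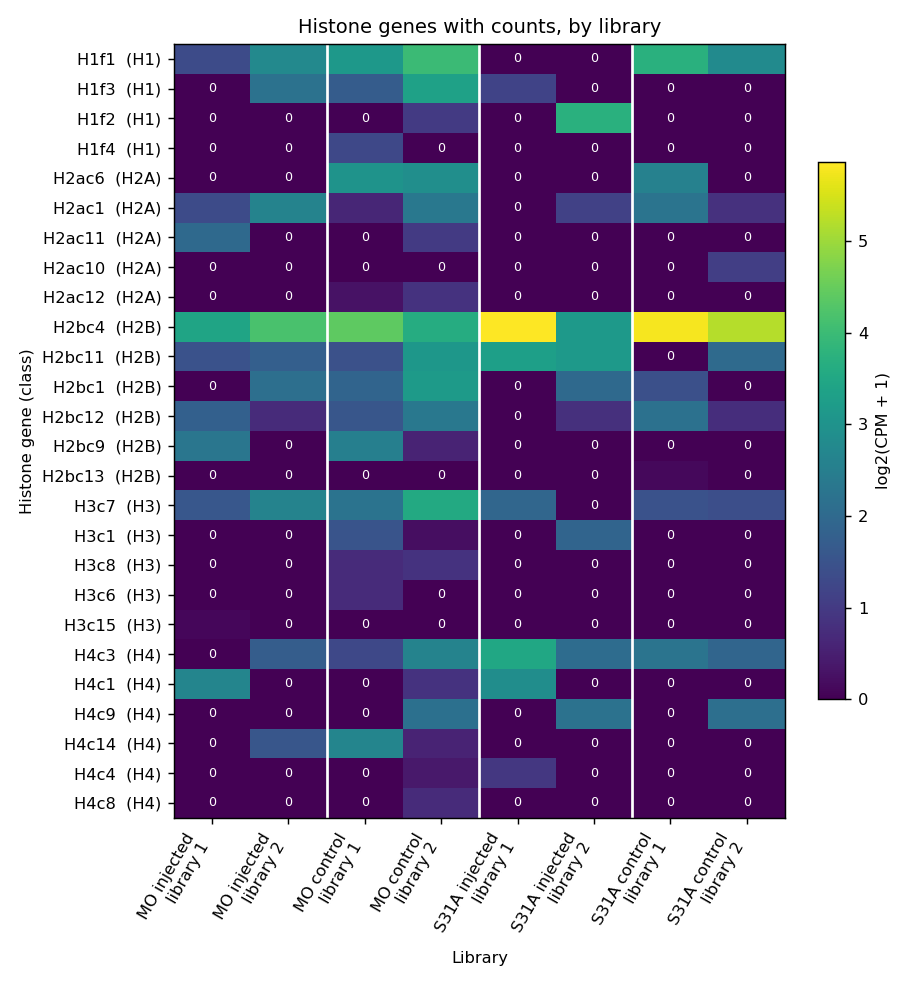
Level of each of the 26 histone genes with counts in the 8 libraries, as log2(CPM + 1), with rows grouped by histone class and ordered by total counts, and a 0 written where a library had no count. H2bc4 fills its whole row, and most other rows hold several zeros.

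The H2B gene H2bc4 led the group. It had 2261 counts, or 45.6% of those of all 56 members. Per kilobase of deposited gene length H2bc4 stood at 11.1 CPM in the MO injected and 14.0 CPM in the MO control sample, and at 30.7 CPM in the S31A injected and 38.7 CPM in the S31A control sample. It was first of the 56 in each of the 4 samples on this scale, with the libraries of a sample summed, and in 5 of the 8 libraries taken singly. The others were MO injected library 1, with H4c1 first at 9.95 CPM per kilobase beside 8.41 for H2bc4, MO control library 2, with H2bc1 first at 21 beside 9.81, and S31A injected library 2, with H2bc11 first at 17.3 beside 6.85. The next member differed between samples and was H2ac1 at 7.78 CPM per kilobase in the MO injected, H1f1 at 13.9 in the MO control, H2bc11 at 18.6 in the S31A injected and H1f1 at 12.2 in the S31A control sample. In the MO control sample the levels of H2bc4 and H1f1 were closer than the libraries of either gene. Slbp stood at 339 CPM per kilobase in the MO injected and 266 in the MO control sample, and at 359 in the S31A injected and 238 in the S31A control sample.

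Near-identical copies make the counts of many members uncertain. The handling of reads that match several places is not stated in the sources used here. H2bc6 and H1f4 also overlap on the same strand. For each gene, the share of its 50-base windows found in no other GENCODE gene was computed as its own sequence. Of 13 members with under 20% own sequence, 3 had counts and their sum was 21, or 3.03 per kilobase. Of 24 members with 20% to 60%, 10 had counts, with a sum of 958, or 69.5 per kilobase. Of 19 members with 60% or more, 13 had counts, with a sum of 3979, or 1718 without H2bc4, which was 55.2 per kilobase without it. The coding sequences of H2ac18 and H2ac19 were identical. That of H3c15, of 411 bases, was identical to the coding sequence of 1 of the 2 annotated H3c14 transcripts. The longer coding sequence of H3c14 had 546 bases. These 4 genes had 1 count in all. Some members had no count although all of their windows were their own, namely the linker histone gene H1f5 and the H2B gene H2bc21. A count of 0 in a gene of shared sequence therefore cannot be read as absence of its RNA.

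**Figure D2:**
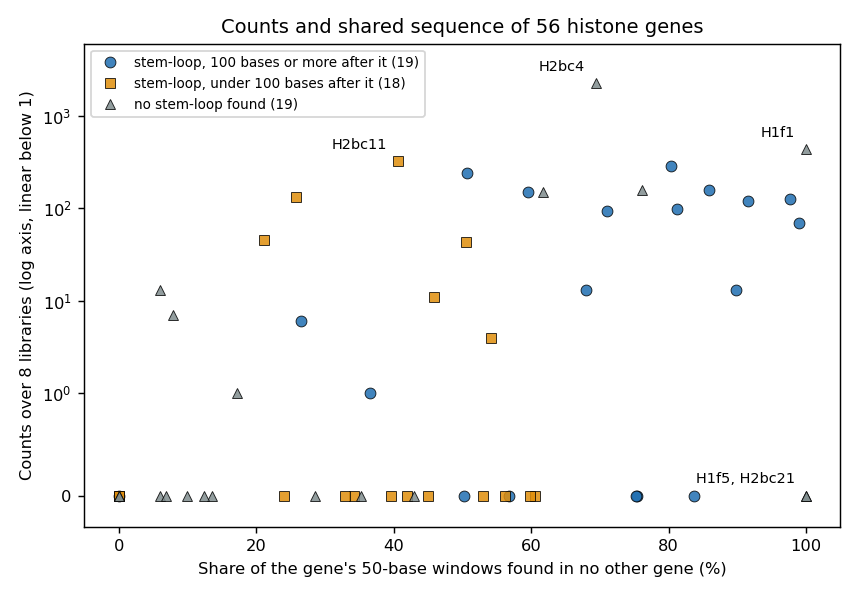
Total counts over 8 libraries (log axis, linear below 1) against the share of the 50-base windows of each gene found in no other gene, for the 56 histone genes, by the stem-loop in the annotated transcript. Genes with 60% or more own windows hold 3979 of the 4958 counts, and H1f5 and H2bc21 are at 0 with 100% own windows.

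Members whose annotated transcripts ran on past the stem-loop had more counts than those that ended soon after it, but fewer per kilobase of deposited gene length. Of the 19 members with 100 bases or more after the stem-loop, 13 had counts, with a sum of 1375, or 42.1 per kilobase. Of the 18 members with fewer than 100 bases after it, 6 had counts, with a sum of 559, or 61.0 per kilobase. The members with the longer ends also had more own sequence, with a median of 75.2% own windows against 41.3%, so length and own sequence cannot be told apart here. The 19 members with no stem-loop found had 3024 counts, of which 763 were left without H2bc4, or 76.1 per kilobase. H1f3, a linker histone gene with 4884 annotated bases after its stem-loop, had 125 counts, and H2bc11, with 23 such bases, had 322. Where reads lay within a gene could not be read from counts per gene.

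Counts were uneven along the gene clusters. Of the 10 members on chromosome 3, 96219865 to 96270132, only H4c14 with 70 counts and H3c15 with 1 count were not at 0. In this cluster H2bc18 overlapped the feature Gm42743, which had 224 counts, on the same strand. H3c13 and H2bc18 overlapped Gm20628, which had 73 counts, on the other strand, and the strand setting is not given. A count of 0 in these 2 members therefore cannot be read as absence of their RNA. On chromosome 13 the 11 members from 21715763 to 21783370 had 1 count in all, on H2bc13. All 5 members from 22035164 to 22043676 had counts, 602 in sum. Of the 28 members from 23531050 to 23764406, 16 had counts, with a sum of 3976. The pair H2bc1 and H2ac1, from 23933773 to 23934851, had 308 counts. The median own sequence was 17.6% on chromosome 3 and 17.2%, 25.8%, 58.2% and 69.0% in the 4 blocks of chromosome 13 in this order.

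**Figure D3:**
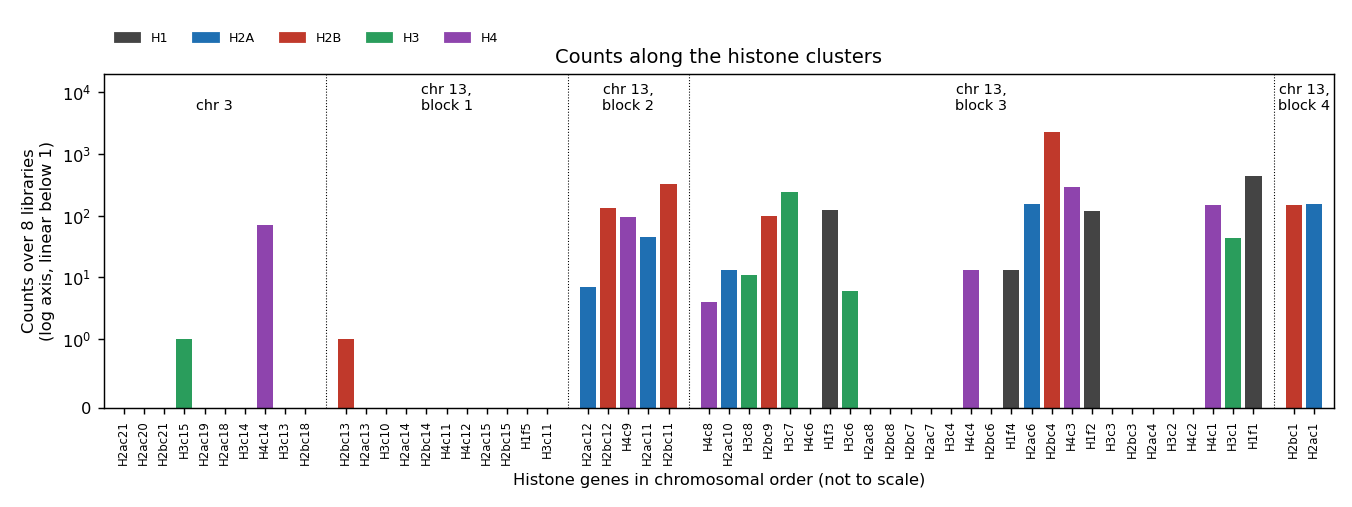
Total counts of the 56 histone genes over 8 libraries (log axis, linear below 1), in chromosomal order and coloured by histone class, with dotted lines between the chromosome 3 cluster and the 4 blocks of chromosome 13. The first block of chromosome 13 holds 1 count and the third block 3976.

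H2A and H2B genes often stand head to head and share the stretch between their start sites. There were 10 such pairs with at most 1000 bases between the genes. In 6 of them the pair had 1 count at most. H2bc4 had 2261 counts and its partner H2ac6, which lies 250 bases away on the other strand, had 157. H2bc11 had 322 counts beside 45 for H2ac11, and H2bc12 had 134 beside 7 for H2ac12. The H2A genes of both these pairs had less own sequence, 21.1% in H2ac11 beside 40.6% in H2bc11, and 7.87% in H2ac12 beside 25.8% in H2bc12. H2ac6 had more, 85.9% beside 69.4% in H2bc4, as did H2ac1, 76.2% beside 61.8% in H2bc1. Unequal counts in a pair therefore cannot be read as unequal RNA. H2ac1 and H2bc1 were nearly equal at 157 and 151 counts. These last genes code for TH2A and TH2B, variants known in the mouse from testis and from oocytes.

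The MO comparison asked how the histone genes stood in zygotes injected with an MO named for H3.3, the replacement histone that is laid down outside replication. The sum of the 56 histone genes was 31.3 and 47.5 CPM in the MO injected libraries, against 64.3 and 91.6 CPM in the MO control libraries. The injected and control libraries did not overlap. The log2 ratio was -0.93 (95% interval -1.06 to -0.80), and -1.16 without H2bc4. The MO control libraries had counts for more features than any other library, 15156 and 14895 against 13159 and 13359 in MO injected libraries. Members with counts were 17 and 21 in MO control and 10 and 10 in MO injected libraries. The sums of all 5 classes had their injected libraries below their control libraries, as did 21.9% of all features at 1 CPM or more. The H1 sum was 1.53 and 9.39 CPM in MO injected and 11.4 and 25.2 CPM in MO control libraries, a log2 ratio of -1.75, which was -0.87 with library 1 of the injected sample left out and -3.40 with library 2 left out. The log2 ratios of the H2A, H2B, H3 and H4 sums were -0.94, -0.59, -1.32 and -0.71.

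Read gene by gene, this lower sum rested on few counts. Of the 2 members at 10 CPM or more in either sample, H1f1 was at least 2-fold lower with MO, and none was at least 2-fold higher. Among all 8110 features measured at that level, 12.5% were at least 2-fold lower and 11.3% higher. At 1 CPM or more, 8 of 16 members were at least 2-fold lower and 2 higher, H2ac11 and H4c1, against 24.3% and 16.7% of all 14229 features. The limit had to be reached in only 1 of the samples, for members and for all features. H4c14, H4c9, H2ac6, H4c3 and H3c1 passed it through the MO control sample alone, and H2ac11 and H4c1 through the MO injected sample alone. The calls and the median are therefore shaped by this limit. The median log2 ratio of these 16 members was -1.19, beside -0.07 for all features at that level. For 3 of the 16, namely H2ac6, H3c1 and H1f1, the higher MO injected library was below the lower MO control library, as it was for 21.9% of all features.

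H1f1, a linker histone gene, had 1.53 and 5.79 CPM in MO injected libraries and 7.72 and 15.0 CPM in MO control libraries. Its libraries did not overlap, and its log2 ratio was -1.61 (interval -2.06 to -1.23). This ratio was -0.89 or -2.73 with library 1 or library 2 of the injected sample left out, and -1.16 with MO control library 2 left out. H2ac6, an H2A gene, had no count in either MO injected library, against 7.06 and 6.41 CPM in the MO control libraries. With the 0 set to a floor of 3 counts for the 2 libraries together and the control at its measured level, it was 48.6-fold lower with MO. The exact 95% interval, which takes in the counting error of the control as well, put its log2 ratio at -5.28 or below, a smaller fold. In the S31A control libraries H2ac6 had 4.95 and 0 CPM, so a gap between a count and 0 also arose within 1 sample. H2bc4 had 9.73 and 17.1 CPM in MO injected and 20.3 and 11.3 CPM in MO control libraries. These overlapped, and the log2 ratio of H2bc4 was -0.33.

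Most other members named by the rule had overlapping libraries in the MO experiment. H3c7, the H3 gene with the most counts, had 1.99 and 5.13 CPM in MO injected and 3.69 and 10.7 CPM in MO control libraries. The H4 gene H4c3 had 0 and 2.29 CPM in MO injected and 1.41 and 5.10 CPM in MO control libraries. H4c1 went the other way in 1 library, with 5.36 and 0 CPM in MO injected and 0 and 0.822 CPM in MO control libraries. For these 3 genes the libraries of the samples overlapped. TH2A, from H2ac1, had 1.53 and 5.13 CPM in MO injected and 0.543 and 4.11 CPM in MO control libraries, and TH2B, from H2bc1, had 0 and 3.38 CPM in MO injected and 2.72 and 8.06 CPM in MO control libraries. Without counts in either MO injected library were the H3 genes H3c1, at 1.85 and 0.164 CPM in MO control libraries, and H3c8, at 0.652 and 0.822 CPM in the same control libraries.

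In the S31A experiment the histone sum did not separate the samples. It was 87.5 and 42.5 CPM in the S31A injected libraries, against 85.1 and 55.5 CPM in the S31A control libraries. The log2 ratio was -0.04 (interval -0.15 to 0.06). H2bc4 made up much of this sum. Without H2bc4 the sum was 30.6 and 34.6 CPM in S31A injected and 31.8 and 19.5 CPM in S31A control libraries, with a log2 ratio of 0.35 and overlapping libraries. H2bc4 itself had 56.9 and 7.92 CPM in S31A injected and 53.4 and 36.0 CPM in S31A control libraries. The log2 ratio of H2bc4 was -0.33, and it was -2.51 without S31A injected library 1 and 0.33 without S31A injected library 2.

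**Figure D4:**
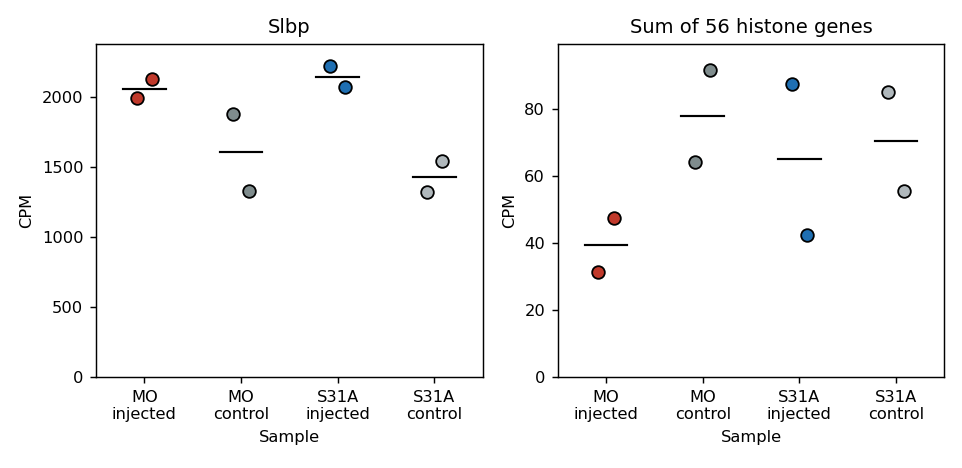
Slbp (left) and the sum of the 56 histone genes (right) in CPM, with 1 point per library and a line at the mean of the 2 libraries of each sample. Slbp is higher in both injected samples than in their controls, and the histone sum is lower in the MO injected libraries (31.3 and 47.5 CPM) than in the MO control libraries (64.3 and 91.6 CPM).

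The class sums differed in direction in the S31A experiment. The H2A sum was 0 and 1.18 CPM in S31A injected libraries, against 8.69 and 1.93 CPM in S31A control libraries, a log2 ratio of -3.09. The H4 sum was 17.6 and 6.85 CPM in S31A injected and 3.74 and 6.15 CPM in S31A control libraries, a log2 ratio of 1.35. The H3 sum was 2.81 and 2.68 CPM in S31A injected and 1.78 and 1.67 CPM in S31A control libraries, a log2 ratio of 0.65. Without S31A injected library 2 the H2A sum had no count in the injected sample. The log2 ratio of the H2A sum was -1.66 without S31A control library 1, and that of the H4 sum was 0.41 without S31A injected library 1. These 3 sums had no overlap between samples, while the H1 and H2B sums overlapped. The nearest libraries were close for H2A (1.18 and 1.93 CPM) and H4 (6.85 and 6.15 CPM). Among all features at 1 CPM or more, 16.0% had all S31A injected libraries above the S31A control libraries and 16.7% had all below. The even H3 sum in the injected libraries came from a different gene in each. H3c7 had 2.81 and 0 CPM in S31A injected libraries, against 1.78 and 1.67 CPM in S31A control libraries, and H3c1 had 0 and 2.68 CPM, against 0 in both S31A control libraries.

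**Figure D5:**
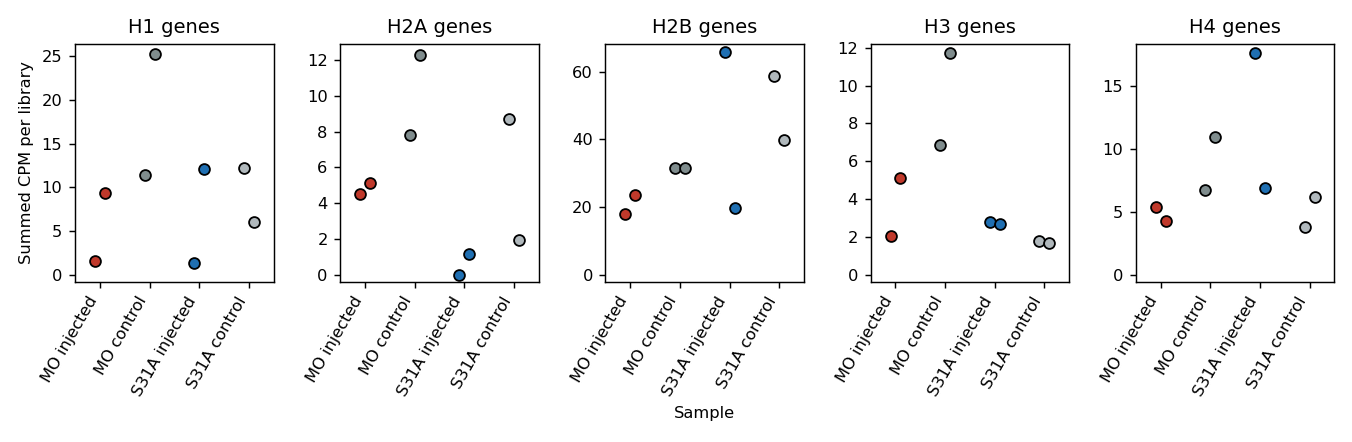
Summed CPM of the H1, H2A, H2B, H3 and H4 genes per library, with 1 point per library and a separate vertical axis for each class. With MO the injected libraries lie below the control libraries in all 5 classes, and with S31A they lie below for H2A and above for H3 and H4.

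H1f1 was again lower. It had no count in either S31A injected library, against 12.2 and 5.98 CPM in the S31A control libraries. By the same floor of 3 counts it was 63.1-fold lower, or 41.0-fold with S31A control library 1 left out. The exact 95% interval put its log2 ratio at -5.67 or below, a smaller fold than 63.1. Its level of 9.08 CPM in the S31A control sample was just under the 10 CPM limit, so it was not among the genes measured there. H2bc11 was higher, with 8.95 and 8.03 CPM in S31A injected libraries and 0 and 3.08 CPM in S31A control libraries, a log2 ratio of 2.36 (interval 1.91 to 3.0). H4c3 had 10.3 and 3.21 CPM in S31A injected and 3.74 and 2.73 CPM in S31A control libraries, which overlapped, and a log2 ratio of 1.14. H2ac6 had no count in the S31A injected libraries and 4.95 and 0 CPM in the S31A control libraries.

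Several members appeared in a single library. The linker histone gene H1f2 had 12.1 CPM in S31A injected library 2 and no count in the other S31A libraries. H4c1 had 6.31 CPM in S31A injected library 1 alone among them. H1f3 had 1.28 CPM there alone. H4c9 had 3.64 CPM in S31A injected library 2 and 3.43 CPM in S31A control library 2, and none in the other two. Over all 4 samples, members at 1 to 10 CPM had a count of 0 in 1 of the 2 libraries in 15 of 38 cases (39.5%). Among all features at that level this was so in 6922 of 19041 cases (36.4%). By sample this was 5 of 10 members (50%) in MO injected and 1 of 12 (8.33%) in MO control, against 34.8% and 22% of all features, and 6 of 8 (75.0%) in S31A injected and 3 of 8 (37.5%) in S31A control, against 47.1% and 46.5%. The other 11 members with counts had 1 to 134 counts in total and at most 5.33 CPM in any library, reached by H4c14 in MO control library 1.

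Of the members at 10 CPM or more in the S31A experiment there was 1, H2bc4, and it was not 2-fold apart in either direction. Among all 8191 features 14.1% were at least 2-fold higher and 16.1% lower. At 1 CPM or more, 5 of 13 members were at least 2-fold higher, against 22.3% of all 13180 features, and 4 were lower, against 23.7%. The higher ones were H2bc11, H4c3, H1f2, H4c1 and H3c1, and the lower ones H2bc12, H2ac6, H1f1 and H2ac1. H1f2, H4c1 and H3c1 passed the limit through the S31A injected sample alone. H2bc12, H2ac6, H1f1 and H2ac1 passed it through the S31A control sample alone. Libraries did not overlap for H2bc11, which was higher, and H1f1, which was lower, against 16.0% and 16.7% of all features. The median log2 ratio of the 13 was -0.12, beside 0.01 for all features at that level.

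Slbp was higher in both injected samples than in their controls. It had 1992 and 2128 CPM in MO injected and 1883 and 1334 CPM in MO control libraries, a log2 ratio of 0.35 (interval 0.33 to 0.37). It was 0.66 without MO control library 1 and 0.17 without MO control library 2. In the S31A experiment it had 2223 and 2072 CPM in injected and 1324 and 1544 CPM in control libraries, a log2 ratio of 0.59 (interval 0.57 to 0.61). In neither experiment did its libraries overlap. Among all features at 10 CPM or more, 19.2% had all injected libraries above all control libraries with MO and 19.8% with S31A. No other feature overlapped Slbp on its own strand, and Gm10459, on the other strand, had no count.

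A fit over the libraries set these differences against the spread between the libraries of a sample. With edgeR's quasi-likelihood test, Benjamini-Hochberg adjusted over all features tested, none of the histone genes tested passed an adjusted p of 0.05. At 10 CPM or more these were only H2bc4 and H1f1 with MO and H2bc4 with S31A, and at 1 CPM or more they were 16 with MO and 13 with S31A. The other members lay below these limits and were not tested. The adjusted p of Slbp was 0.825 with MO, and 0.802 with S31A, where its unadjusted p was 0.018. The adjusted p of H1f1 was 0.827 with MO, and that of H2bc4 was 0.953 with MO and 0.968 with S31A. At the lower limit of 1 CPM the unadjusted p was 0.0125 for H2ac6 with MO and 0.0396 for H1f1 with S31A, with edgeR adjusted p of 0.821 and 0.862. Over all features edgeR called 0 of 8110 with MO, where 429 had an unadjusted p under 0.05, and 2 of 8191 with S31A. With MO the smallest edgeR adjusted p of any feature was 0.0644. Even the H3.3 gene H3f3b, at a log2 ratio of -8.34, was not called. The lack of a call with MO therefore cannot show that a gene did not differ. DESeq2 called 54 with MO and 601 with S31A, among them Slbp with S31A at an adjusted p of 0.00449. It was run at 10 CPM or more alone, and called neither H2bc4 and H1f1 with MO nor H2bc4 with S31A. The S31A ratio minus the MO ratio of Slbp was 0.21 on the log2 scale, with an adjusted p of 0.989 in the edgeR interaction fit, and for H1f1 the unadjusted p of this difference was 0.0315 and the adjusted p 0.747. Its size is not given for H1f1, since both S31A injected libraries were at 0 and the fitted value depends on the prior count.

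The 2 controls differed from each other in the histone genes as well. Their histone sums were close, with a log2 ratio of -0.05 for S31A control over MO control. H2bc4 had 53.4 and 36.0 CPM in S31A control and 20.3 and 11.3 CPM in MO control libraries, a log2 ratio of 1.45. Without H2bc4 the histone sum was 31.8 and 19.5 CPM in S31A control and 44.0 and 80.2 CPM in MO control libraries, a log2 ratio of -1.14. H3c7 had 1.78 and 1.67 CPM in S31A control and 3.69 and 10.7 CPM in MO control libraries. At 1 CPM or more, 8 of 14 members were at least 2-fold lower in the S31A control than in the MO control, against 29.1% of all 14086 features, and 7 had no overlap, against 26.9%. H2bc4 alone was at least 2-fold higher, against 17.2% of all features. Among the lower ones H4c14, H2bc9, H1f3, H3c1 and H2bc1 passed the limit through the MO control sample alone. The MO injected sample and the S31A control sample were both set against the MO control here, and without H2bc4 their log2 ratios of the histone sum were -1.16 and -1.14.

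Genes that process histone mRNA showed no common direction. The counts of listed genes at least 2-fold apart stand beside the shares of all features at 10 CPM or more, which were 11.3% higher and 12.5% lower with MO, and 14.1% higher and 16.1% lower with S31A. Of the 18 listed, 12 were at 10 CPM or more in each experiment, counting Slbp. With MO 2 were at least 2-fold higher and 2 lower, and with S31A 1 was higher and 3 lower. None of these 8 kept a 2-fold difference with each library left out in turn. Lsm10 and Lsm11 code for the proteins particular to the U7 particle, which cuts histone pre-mRNA. Lsm11 had 52.1 and 23.0 CPM in MO injected and 24.0 and 5.10 CPM in MO control libraries (log2 ratio 1.33), and 17.9 and 36.0 CPM in S31A injected and 11.5 and 13 CPM in S31A control libraries (1.08). Lsm10 had 11.3 and 4.58 CPM in MO injected and 9.56 and 52.6 CPM in MO control libraries, and 119 and 44.4 CPM in S31A injected and 88.4 and 17.7 CPM in S31A control libraries, and overlapped in both experiments. Casp8ap2, whose protein FLASH binds Lsm11, had 248 and 422 CPM in MO injected and 229 and 199.7 CPM in MO control libraries (0.61). With S31A its libraries overlapped.

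Among the other processing genes, Mif4gd, the partner of SLBP in translation, had 42.3 and 14.4 CPM in MO injected and 11.7 and 12.5 CPM in MO control libraries (log2 ratio 1.40). The cleavage factor gene Cstf2t had 9.27 and 3.17 CPM in MO injected and 16.2 and 11 CPM in MO control libraries (-1.0), and 17.4 and 4.07 CPM in S31A injected and 25.5 and 40.1 CPM in S31A control libraries (-1.51). It lay below its control in both experiments. Cpsf2, another cleavage factor gene, had 41.0 and 89.3 CPM in S31A injected and 142 and 140.5 CPM in S31A control libraries (-1.17). Zfp473, a zinc finger protein of the U7 step, overlapped in both experiments, with 0 and 57.1 CPM in the S31A control libraries.

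Of 12 genes of histone gene transcription, 12 were measured with MO, where 1 was at least 2-fold higher and 1 lower, and 11 with S31A, where 3 were higher and 1 lower. Over all features the shares were 11.3% higher and 12.5% lower with MO and 14.1% higher and 16.1% lower with S31A. With each library left out in turn, Cdk2 with MO and Hinfp with S31A kept a 2-fold difference, and the other 4 did not. Npat, the coactivator of histone gene clusters, overlapped in both experiments with log2 ratios of 0.08 with MO and -0.21 with S31A. Hinfp, which drives H4 genes, had 12.5 and 13.5 CPM in S31A injected and 41.8 and 41.6 CPM in S31A control libraries, a log2 ratio of -1.67. Its MO log2 ratio was -0.80. Cdk2, the kinase that activates NPAT, had 9.80 and 6.44 CPM in MO injected and 24.3 and 43.1 CPM in MO control libraries (-1.85), and overlapped with S31A. E2f1 had a log2 ratio of 0.97 with MO and -0.18 with S31A. E2f4 had one of 0.60 with MO and 1.06 with S31A. Libraries of Hinfp, E2f1 and E2f4 did not overlap in either experiment, nor did those of Cdk2 with MO. For E2f1 with S31A the nearest libraries were 164 and 166 CPM. Among all features at 10 CPM or more, all injected libraries were higher for 19.2% and lower for 21.3% with MO, and for 19.8% each way with S31A.

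For histone mRNA decay 7 of 10 genes were measured in each experiment, with 0 at least 2-fold apart with MO and 2 higher with S31A, where 14.1% of all features were higher. These were the exonuclease genes Xrn1, with 20.5 and 23.3 CPM in S31A injected and 9.06 and 3.43 CPM in S31A control libraries (log2 ratio 1.81), and Xrn2, with 172 and 134 CPM in S31A injected and 93.3 and 39.9 CPM in S31A control libraries (1.25). The ratio of Xrn2 was 0.79 without S31A control library 2, while Xrn1 kept a 2-fold difference with each library left out in turn. Eri1, which trims the end of histone mRNA at the stem-loop, overlapped in both experiments. Of 10 measured genes that supply histones to replicating DNA, 2 were at least 2-fold higher with MO and 0 lower, and 1 was higher and 2 lower with S31A, beside 11.3% and 12.5% of all features with MO and 14.1% and 16.1% with S31A. Only Ipo4 and Asf1a with S31A kept this with each library left out in turn. The importin gene Ipo4 had 0 and 0.963 CPM in S31A injected and 11.2 and 17.7 CPM in S31A control libraries. The chaperone gene Asf1a had 501 and 615 CPM in S31A injected and 243 and 219 CPM in S31A control libraries (1.26), and the chaperone gene Nasp had 149 and 237 CPM in MO injected and 283 and 511 CPM in MO control libraries (-0.96).

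The linker histone gene of the oocyte, H1f8, whose mRNA has a poly(A) tail, had far more counts, with the limit from priming given above. It had 5338 and 1214 CPM in MO injected and 1180.2 and 374 CPM in MO control libraries, and 3332 and 1835 CPM in S31A injected and 2167 and 2402 CPM in S31A control libraries. Per kilobase, with the libraries of a sample summed, H1f8 stood at 3047 CPM in MO injected and 694 in MO control, and at 2245 in S31A injected and 1918 in S31A control. No replication-dependent gene passed 38.7 on this scale, or 49.2 in a single library. H1f0, a replacement linker histone, had 72.1 and 56 CPM in MO injected and 57.6 and 53.1 CPM in MO control libraries, and 66.6 and 79.3 CPM in S31A injected and 32.4 and 41.1 CPM in S31A control libraries. Per kilobase H1f0 stood at 32.0 CPM in MO injected and 26.3 in MO control, and at 35.5 in S31A injected and 18.1 in S31A control, beside 11.1 to 38.7 for H2bc4. Of the 6 measured replacement histone genes, 1 was at least 2-fold higher with MO, H1f8, and 2 were lower, the H3.3 genes H3f3a and H3f3b, and none was 2-fold apart with S31A. The log2 ratio of H1f8 with MO was 2.13, and 0.47 without MO injected library 1. The 2 H3.3 genes kept a 2-fold difference with each library left out in turn. H3f3b had 2.30 and 10.5 CPM in MO injected and 2199 and 1549.6 CPM in MO control libraries, and 2438 and 2749 CPM in S31A injected and 1453 and 1819 CPM in S31A control libraries.

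All 13 listed markers of egg and zygote were at 10 CPM or more. Of 14 markers of cumulus and granulosa cells, the somatic cells around the egg, 9 had no count in the MO experiment and 9 in the S31A experiment, with Amh, Fshr and Foxl2 at 0 in both. The summed level of this list was 99.7 and 68.8 CPM in MO injected and 58.7 and 76.8 CPM in MO control libraries, and 192 and 68.4 CPM in S31A injected and 58.7 and 90.2 CPM in S31A control libraries, most of it Cyp19a1. At 10 CPM or more there were 2 with MO, Cyp19a1 and Kitl, and 3 with S31A, where Star was the third. Kitl had 11.8 and 15.5 CPM in MO injected and 10.9 and 22.9 CPM in MO control libraries. With S31A, Kitl had 26.3 CPM in injected library 1 and Star had 23.5 CPM in control library 1. Of 6 sperm markers 5 had no count in the MO experiment and 4 in the S31A experiment. Of 5 markers of dividing cells, Cdk1 had 24.5 and 28.8 CPM in MO injected and 39.9 and 80.1 CPM in MO control libraries, so it lay below its control together with the histone sum (log2 ratio -1.03). Pcna lay above its control, with 176 and 154 CPM in MO injected and 146 and 131 CPM in MO control libraries (0.31), and Mki67, Top2a and Ccnb1 overlapped. With S31A, Pcna and Ccnb1 lay above their controls (0.49 and 0.43), Mki67 and Top2a below (-0.86 and -0.56), and Cdk1 overlapped. Their part in the histone values was not tested. MO injected library 1 stood apart for some egg transcripts such as Gdf9, at 4674 CPM beside 490.1 CPM in MO injected library 2, against 869 and 822 CPM in MO control libraries. Others of the list were lower in MO injected library 1 than in library 2, such as Bmp15 (1293 and 2800.2 CPM) and Ooep (133 and 219.5 CPM). Oosp1 was nearly level at 596 and 609.6 CPM. Without MO injected library 1 the histone sum had a log2 ratio of -0.69 with MO.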

How the data were processed

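RNA-seq counts of 4 zygote samples, with 2 count columns each and 8 in all, were used. The submitters' processing notes name FastQC, Bowtie2, featureCounts, DESeq2 and mm10. Versions, strand setting and handling of reads that match several places are not given in the sources used here, and neither is the priming of the cDNA, which the labels' protocols say was amplified by PCR. The values deposited are raw counts of each gene, whole and not normalized, beside its length in bases. Depth was 5661621 to 13233371 counts per library, where a floor of 3 counts is 0.230 to 0.493 CPM.

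Counts were then summed over the libraries of a sample and scaled by TMM (edgeR 4.0.16, R 4.3.3). Ratios are log2 with a prior count of 2 and exact 95% Clopper-Pearson intervals. A gene was measured in a comparison when either sample reached 10 CPM. Libraries were fitted with edgeR's quasi-likelihood test and DESeq2 1.42.0. The fit was also run on simulated counts, with the outcome not given here. Its p-values reflect the spread between libraries, not between zygote samples. Sequences and positions are from GENCODE M21.

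Genes named are Slbp, members at 10 CPM or more in a sample, the 3 members of each class with the highest mean CPM, up to 4 members per pathway list with the largest ratios, and Lsm10, Lsm11, Casp8ap2, Npat and Zfp473. Others named were chosen after their values were seen. The members and lists were chosen with earlier results of these data known. Histone features under other symbols, such as H2bu2 with 500 counts and H4f16 with 167, were outside the rule.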

Additional observations from a re-analysis of the deposited data

Results flagged for a closer look

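The H3 and H4 sums went opposite ways in the 2 experiments, with no overlap between injected and control libraries in either. Among all features at 1 CPM or more, 21.9% had all injected libraries below the control libraries with MO, and 16.0% had all above with S31A. For H4 the nearest injected and control libraries were close, at 5.36 and 6.74 CPM with MO and 6.85 and 6.15 CPM with S31A. The log2 ratio of the H3 sum was -1.32 with MO and 0.65 with S31A, and that of the H4 sum was -0.71 with MO and 1.35 with S31A. The difference between the experiments was not tested. The 2 controls also differed in both sums, with all S31A control libraries below the MO control libraries, as for 26.9% of all features at 1 CPM or more. The log2 ratio of S31A control over MO control was -2.23 for H3 and -0.68 for H4. The H3 sum was 1.78 and 1.67 CPM in S31A control and 6.85 and 11.7 CPM in MO control libraries. It was 2.07 and 5.13 CPM in MO injected and 2.81 and 2.68 CPM in S31A injected libraries. These sums rest on few counts, with 74 in MO injected and 134 in MO control, and 58 in S31A injected and 38 in S31A control, for H3, and 109 in MO injected and 128 in MO control, and 270 in S31A injected and 110 in S31A control, for H4. Leaving out a library in turn gave log2 ratios of the H3 sum of 0.56 to 0.72 and of the H4 sum of 0.41 to 1.79 with S31A, and of -2.06 to -0.79 and -1.09 to -0.40 with MO.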

How the results depend on the processing

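Leaving out a library in turn gave log2 ratios of the histone sum of -1.29 to -0.69 with MO and -0.76 to 0.32 with S31A, and of Slbp of 0.17 to 0.66 with MO and 0.48 to 0.75 with S31A. It gave 0 to 2 members at least 2-fold lower and 0 to 0 higher with MO, and 0 to 1 of each with S31A. Without H2bc4, chosen after seeing the data, the histone sum was -1.16 with MO and 0.35 with S31A. Slbp stood at 0.24 with MO and 0.49 with S31A when scaled by total counts, and at 0.33 with MO by DESeq2 size factors. With the limit at 1 CPM the MO experiment had 2 members higher and 8 lower, and the S31A experiment 5 higher and 4 lower. Without a limit the MO experiment had 2 higher and 15 lower of 24 members with a count, against 16.3% and 29.1% of 19046 features, and the S31A experiment 7 higher and 5 lower of 17, against 23.1% and 24.0% of 15489. Many of these rest on very few counts. With MO, H4c4, H4c8, H3c6, H1f2 and H2ac12 had 2, 4, 6, 6 and 7 counts in the control and 0 in the injected sample. The intervals of the log2 ratio reached up to 1.93 for H4c4 and 0.11 for H4c8. At 50 CPM 0 members were left with MO. DESeq2 over libraries gave Slbp a fitted log2 ratio of 0.56 with S31A, adjusted p 0.00449, against 0.57 and 0.802 with edgeR. The cause of these shifts was not tested. Of the alternative values, 110 stayed within the 95% counting interval of the ratio, within 1.5 times the count or on the same side of the threshold, 69 moved beyond it and 1 passed the threshold. The libraries carry the numbers 1 and 2, but no source says that a number pairs them across samples, and the differences between libraries 1 and 2 of the injected and the control sample had a correlation across genes of 0.07 with MO and -0.01 with S31A. With the number as a replicate block in edgeR, chosen after seeing the data, the fitted log2 ratio of Slbp was 0.41 with MO (adjusted p 0.794) and 0.57 with S31A (adjusted p 0.939), and 0 features were called with MO and 2 with S31A, among them 0 members. A count of 0 in a library allows up to 0.230 to 0.493 CPM of assigned counts, by counting error alone.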
